A study of Arabidopsis thaliana with 29 samples.

Results

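The comparison described here is the difference between the wild type and the mutant pp7l of Arabidopsis thaliana in their response to 9 days without water, taken for each locus as the change in the mutant less the change in the wild type. The members are the 17135 of 33681 loci in the deposited table that reached a level of at least 1 TPM (a transcript's share of all transcripts, scaled to a fixed total) in at least 3 of 12 libraries. Those 12 of the 29 libraries of the series form 4 groups of 3: Col0 (wild type, accession Col-0) and pp7l (in the same accession) at 0 D, at an age of 3 weeks, and both after 9 days without water (9 D). All plants came from plates with sucrose, were moved to soil as seedlings and grew under 16 h of light at 22 °C, and RNA was taken from whole plants. The labels of the samples and the text of the series give different alleles (pp7l-2 and pp7l-1), so the mutant is written pp7l. No watered plants aged 9 days more than the starting plants were among these groups, so every change holds both the lack of water and age. The columns of the table are marked brep, for replicates, but the labels do not say whether these were separate plants, pots or pools, so p-values measure the spread between these libraries, part of which may be technical.

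For each locus the change from 0 D to 9 D in Col0 was subtracted from the change in pp7l, on the log2(TPM + 1) scale. This difference in change is positive where a transcript rose more, or fell less, in pp7l, and negative where it rose less or fell more. TPM are shares of a total, so a fall of very abundant transcripts lifts all the others. The median locus changed by 0.93 in Col0 and by 0.37 in pp7l (log2), and its difference in change was -0.54 on TPM as deposited and 0.03 after median-of-ratios scaling. A locus is therefore counted as called only where limma gave an adjusted p under 0.05 in the same direction on the TPM as deposited and after that scaling. Where a gene is named, its difference comes from the TPM as deposited with its standard error, followed by the scaled one. Rose and fell, said of a gene within 1 genotype, refer to a call on the TPM as deposited, and the scaled call is added where its direction is the opposite one.

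As background, PP7L is a nuclear protein related to plant serine/threonine phosphatases and is needed for normal chloroplast development. When soil dries, plants build up abscisic acid, which closes stomata and induces dehydration genes, while genes of the photosynthetic apparatus are commonly reduced. Flavonoids, including the red anthocyanins, and the waxes of the cuticle are also known to accumulate under drought.

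PP7L itself was near the lower limit of the table in every library. Its level was 0.0863, 0.271 and 0.244 TPM in Col0 at 0 D and 1.059, 1.08 and 0.947 TPM at 9 D. The libraries labelled pp7l had 0.375, 0.672 and 0.712 TPM at 0 D and 1.36, 0.758 and 2.62 TPM at 9 D, so that the gene-level value was not lower in them and does not check the genotype. Throughout, pp7l stands for libraries that carry this label. Its difference in change was -0.12 ± 0.29 (SE) (adjusted p = 0.752), with no call in either scaling.

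Libraries of 1 group resembled each other more than those of other groups, with rank correlations across loci of 0.944 to 0.975 within groups and 0.7 to 0.918 between them. Depth is unknown, because the table holds no counts. Between 20318 and 22586 loci were above 0 in a library. Plastid loci held 72.5, 70.7 and 74.8% of all TPM in Col0 at 0 D and 61.8, 60.8 and 63.2% at 9 D. In pp7l they held 69.0, 70.6 and 69.8% and 68.0, 68.1 and 67.4%. The share thus fell by 10.7 points on average in Col0 and by 1.94 points in pp7l, and the groups did not overlap within either genotype. The mitochondrial share rose from 0.716% ± 0.00589 to 1.74% ± 0.134 in Col0 and from 0.837% ± 0.0344 to 1.28% ± 0.143 in pp7l (SD, n = 3). Each of these changes had an exact two-sided permutation p of 0.1, the smallest that 3 against 3 libraries allow (adjusted p = 0.133 over 12 tests).

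**Figure D1:**
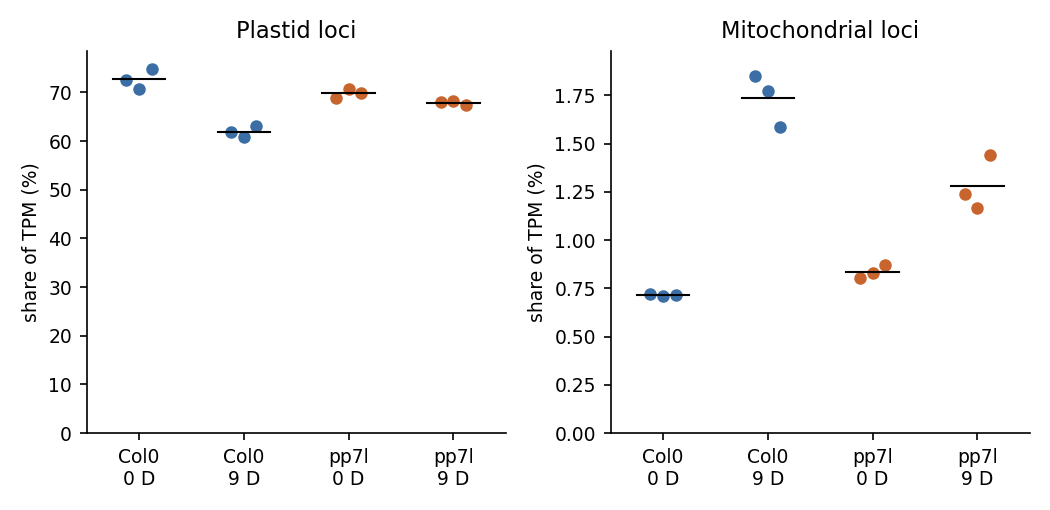
Share of all TPM (in percent) held by plastid loci (left) and mitochondrial loci (right) in each of the 12 libraries, with dots for libraries and bars for group means (n = 3). The plastid share of Col0 falls from 72.7% to 62.0% on average while that of pp7l falls from 69.8% to 67.9%.

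Most loci that were called within both genotypes moved in the same direction. On TPM as deposited, 78.8% of the loci were called higher in Col0 after 9 D and 5.77% lower, while in pp7l the shares were 48.3% and 12.4%. After scaling the shares were 32.1% and 30.7% in Col0 and 24.9% and 24.6% in pp7l, and 6053 loci were called as changed in the same direction in both genotypes, and in 3907 of them (64.5%) the change was the smaller one in pp7l. Another 331 loci were called in opposite directions. Across the 17135 loci, which are not independent replicates, the changes in both genotypes had a Pearson r of 0.649 as a description.

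The difference in change was called positive at 381 loci (2.22% of those tested) and negative at 2131 loci (12.4%). On TPM as deposited alone the counts were 386 (2.25%) and 8380 (48.9%), and after scaling alone 2170 (12.7%) and 2131 (12.4%), so the split between the directions depends on the scaling. Of the 2131 negative loci, 1138 (53.4%) rose in Col0 and were not called in pp7l, 391 (18.3%) fell in pp7l with no call in Col0, and 271 (12.7%) rose in both (calls of the single changes after scaling). Of the 381 positive loci, 139 (36.5%) fell in both genotypes, 98 (25.7%) fell in Col0 with no call in pp7l, and 67 fell in Col0 and rose in pp7l. The count of negative loci was 1251, 1207 and 1318 without Col0 9 D replicate 1, 2 and 3, respectively. With the variance estimated from all 29 libraries, of which some at other days vary more, 91 positive and 1629 negative loci were called, and without Col0 6 D replicate 1, which stood apart from its group mate, 208 and 2815.

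**Figure D2:**
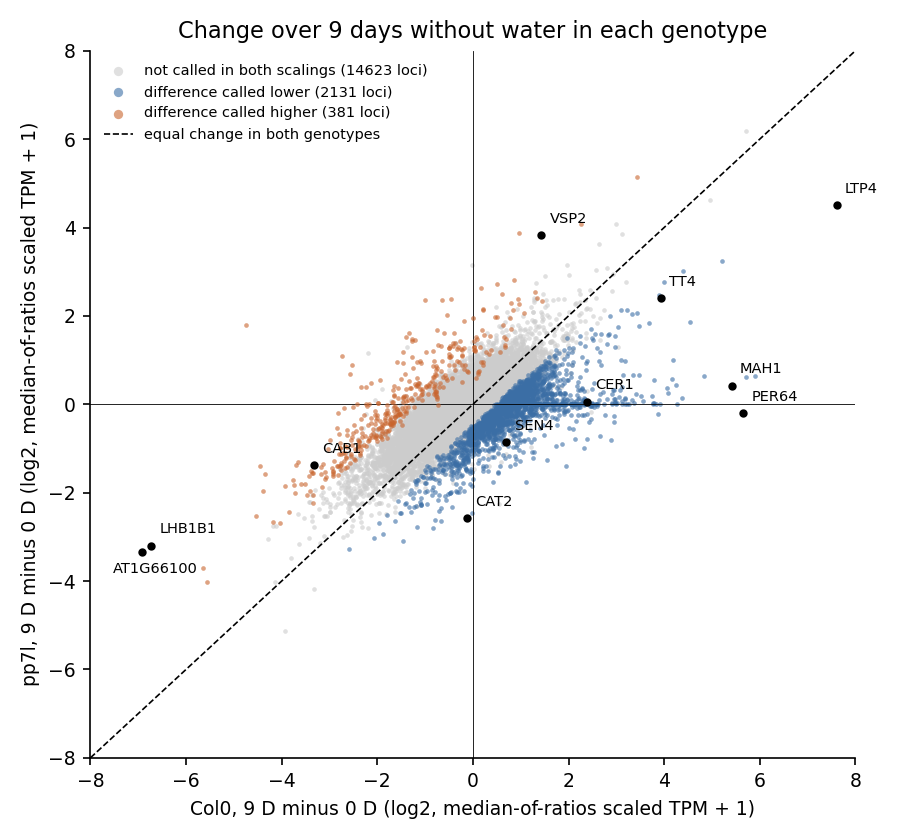
Change from 0 D to 9 D in Col0 (x axis) and in pp7l (y axis) on the log2 scale of median-of-ratios scaled TPM + 1, with 1 point for each of the 17135 loci tested. The 2131 loci with a negative difference in change lie below the dashed line of equal change and the 381 with a positive one above it, and the named genes PER64 and MAH1 lie far to the right, high in Col0 at 9 D alone.

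The starting levels already differed. Of the 2131 negative loci, 1169 (54.9%) were called higher in pp7l than in Col0 at 0 D and 1038 (48.7%) lower at 9 D. Of the 381 positive loci, 257 (67.5%) were called lower in pp7l at 0 D and 265 (69.6%) higher at 9 D. These comparisons share their libraries with the difference in change, so the shares describe the calls and add no separate evidence. For scale, 3926 (22.9%) of all loci tested were called higher and 4319 (25.2%) lower in pp7l at 0 D after scaling.

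Among the 12 loci with the largest positive differences, that of LHB1B1, a gene of the light-harvesting antenna, is described with its list. The largest difference was that of AT1G66100, annotated as a thionin, a class of small antimicrobial proteins. It stood at 84.7, 100.3 and 112 TPM in Col0 at 0 D and 0.345, 0.599 and 0.603 TPM at 9 D, and at 51.5, 62.5 and 59.4 and 7.59, 7.87 and 5.50 TPM in pp7l. All libraries of 9 D lay below all of 0 D, and at 9 D those of pp7l lay above those of Col0. Its difference in change was 3.15 ± 0.21 (SE) and 3.58 after scaling (adjusted p = 1.05e-07 and 2e-07).

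AT1G14250, annotated as a nucleoside phosphatase of the GDA1/CD39 family, moved in opposite directions. It went from 4.41, 5.52 and 4.47 TPM to 0.778, 0.782 and 0.647 TPM in Col0 and from 6.75, 9.42 and 9.95 TPM to 21.6, 23.9 and 16.4 TPM in pp7l, with no overlap between days in either genotype. The difference was 2.89 ± 0.23 (SE), or 3.27 scaled (adjusted p = 5.73e-07 and 2.15e-07). IAA29, an auxin-responsive repressor of the Aux/IAA family known to be raised in shade, behaved alike: 8.29, 10.3 and 10.095 TPM became 1.90, 4.33 and 2.71 TPM in Col0, and 4.25, 7.39 and 5.58 TPM became 14.03, 14.9 and 18.7 TPM in pp7l. Its difference was 2.79 ± 0.30 (SE), or 3.42 scaled (adjusted p = 1.16e-05 and 1.9e-06).

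NATA1, an acetyltransferase that makes the defence compound acetylornithine and is known to respond to jasmonate, was at 2.68, 1.47 and 0.779 TPM in Col0 at 0 D, 1.28, 1.75 and 2.63 TPM in Col0 at 9 D and 0.898, 2.41 and 1.57 TPM in pp7l at 0 D. In pp7l at 9 D it reached 15.4, 18.15 and 16.1 TPM, above all the other groups, and the difference was 2.61 ± 0.36 (SE), or 3.02 scaled (adjusted p = 9.73e-05 and 7.36e-05). PCC1, a gene named for its control by pathogens and the clock, fell from 305, 269 and 324 TPM to 38.6, 49.8 and 23.64 TPM in Col0 and from 272, 299.9 and 277 TPM to 141, 167 and 102 TPM in pp7l. The fall was the shallower in pp7l, by 1.96 ± 0.31 (SE), or 2.78 scaled (adjusted p = 0.000229 and 7.61e-05). With the variance of all 29 libraries its adjusted p was 0.113.

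RAV2, a transcription factor also called TEMPRANILLO2 and known to repress flowering, fell from 25.6, 24.1 and 25.1 TPM to 16.3, 10.6 and 10.4 TPM in Col0 and rose from 10.2, 9.37 and 10.4 TPM to 16.7, 18.21 and 21.9 TPM in pp7l. Its difference was 1.83 ± 0.22 (SE), or 2.62 scaled (adjusted p = 2.84e-05 and 1.26e-06). AT5G23820, annotated with an MD-2-related lipid recognition domain, had the difference 2.49 ± 0.20 (SE), AT5G50335 (uncharacterized) had 2.19 ± 0.34 (SE), and the noncoding locus AT4G13495 had 1.92 ± 0.25 (SE) (adjusted p = 0.0648 with all 29 libraries). Both remaining loci of the 12 rest on libraries listed at 0. AT3G04184 was at 0 in both groups of 0 D, at 0, 0 and 9.57 TPM in Col0 and at 8.97, 20.5 and 27.4 TPM in pp7l at 9 D (adjusted p = 0.0138, and 0.0781 with the variance of all 29 libraries). It met the filter of 3 libraries only with pp7l at 9 D, so its call is no support. The microRNA locus MIR841a was at 44.0, 31.3 and 14.3 TPM and 8.55, 9.75 and 8.78 TPM in Col0, and of the pp7l libraries only replicate 3 at 9 D was above 0, with 11.7 TPM. Its adjusted p was 0.0334, and that of leaving out single libraries reached 0.0788.

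The promoters of both top loci whose upstream bases overlap no other gene are shown for later comparison with those of the negative loci. They are the 250 bases before the annotated start, 5′ to 3′ on the strand of the gene, from RefSeq's TAIR10.1, AT1G66100 at chr1:24606723-24606972 on the minus strand and AT1G14250 at chr1:4868096-4868345 on the plus strand. Capitals mark ACGTG (the core of elements bound by abscisic acid and light factors), GATAAG (the I-box of light-regulated genes) and TATAAA, on either strand.
AT1G66100: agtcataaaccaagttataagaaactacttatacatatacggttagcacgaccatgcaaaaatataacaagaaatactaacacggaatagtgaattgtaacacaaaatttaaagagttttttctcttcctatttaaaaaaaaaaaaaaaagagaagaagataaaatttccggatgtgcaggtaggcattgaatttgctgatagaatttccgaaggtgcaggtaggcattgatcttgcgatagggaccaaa
AT1G14250: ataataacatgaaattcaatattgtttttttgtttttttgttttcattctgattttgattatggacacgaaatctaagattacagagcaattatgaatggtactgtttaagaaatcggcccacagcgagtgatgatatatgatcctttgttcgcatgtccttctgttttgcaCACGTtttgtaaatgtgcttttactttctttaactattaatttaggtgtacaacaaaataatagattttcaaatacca
The window of AT1G66100 holds none of these letters, and that of AT1G14250 holds ACGTG once, on the minus strand.

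Light-harvesting proteins bind chlorophyll and pass the absorbed energy to the photosystems. Of 20 tested members of that list, 11 had a positive and 1 a negative call, against 2.22% and 12.4% of all loci. Subunits of the photosystems and of electron transport had 15 positive and 0 negative calls among 30 tested of 31 listed. The median scaled difference was 1.36 for the antenna list and 1.21 for the photosystem list, beside 0.03 for all loci.

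LHB1B1 (AT2G34430), an antenna protein of photosystem II, had the largest difference of both lists. It fell from 2348, 2408 and 2015 TPM to 39.0, 58.7 and 61.9 TPM in Col0 and from 1377, 1392 and 1309.9 TPM to 251, 221 and 162 TPM in pp7l. The order of the genotypes turned: at 0 D all pp7l libraries were the lower ones, and at 9 D all were the higher ones. The difference was 2.70 ± 0.24 (SE), or 3.53 scaled (adjusted p = 2.01e-06 and 1.13e-06).

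CAB1, an abundant antenna gene of photosystem II, showed the same order. It fell from 9685, 9942 and 8010.0 TPM to 1910.1, 2579 and 2483 TPM in Col0 and from 8008, 7842 and 7585 TPM to 4373, 4394 and 3942 TPM in pp7l, a difference of 1.11 ± 0.16 (SE), or 1.95 scaled (adjusted p = 0.000153 and 1.86e-05). CAB3, its neighbour in the family, fell from 3331, 3380.0 and 2949.6 TPM to 697, 851 and 810.4 TPM in Col0 and from 2391, 2373 and 2299 TPM to 1202, 1177 and 1027 TPM in pp7l, and its difference was 0.98 ± 0.14 (SE), or 1.82 scaled (adjusted p = 0.000116 and 1.55e-05). CAB1, CAB2 and CAB3 are nearly identical, as are LHB1B1 and LHB1B2, so how the reads were divided among them is uncertain. LHB1B2 had the difference 0.51 ± 0.19 (SE) (adjusted p = 0.0339), and the call was lost without any 1 of 7 libraries (Col0 0 D replicates 1 and 2, Col0 9 D replicate 1, pp7l 0 D replicates 2 and 3, pp7l 9 D replicates 1 and 2; adjusted p up to 0.0864). CAB2, at a difference of 0.12, was not called.

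The antenna list also holds its own exception. LHCB4.3, a variant of the minor antenna protein CP29 known to be raised in strong light, rose from 20.2, 22.6 and 15.1 TPM to 42.1, 37.4 and 33.1 TPM in Col0, a direction that was reversed after scaling, and fell from 14.2, 15.5 and 13.96 TPM to 8.44, 8.63 and 6.33 TPM in pp7l. Its difference was -1.77 ± 0.22 (SE), or -0.92 scaled (adjusted p = 4.03e-05 and 0.00557). Its relative LHCB4.2 went the other way, with 1.03 ± 0.22 (SE), or 1.86 scaled (adjusted p = 0.00160 and 2.98e-05). Among the subunits, PSBQ2 of the oxygen-evolving complex fell from 759.6, 902 and 826 TPM to 369, 415 and 465 TPM in Col0 and stayed between 585 and 740.2 TPM in all pp7l libraries (difference 1.16 ± 0.15 (SE), or 2.00 scaled; adjusted p = 4.39e-05 and 3.71e-06). PSAN of photosystem I had the difference 0.97 ± 0.13 (SE) and PSBR of photosystem II 0.57 ± 0.13 (SE).

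These calls depend on the libraries that set the variance. With the variance of all 29 libraries, 1 antenna gene (LHB1B1) and 0 photosystem genes kept a positive call in both scalings, and without Col0 6 D replicate 1 the counts were 5 and 4. Leaving out each of the 12 libraries in turn gave 9 to 15 antenna genes and 12 to 23 photosystem genes. In whole plants, fewer cells of a type and less RNA per cell cannot be told apart. The summed level of the 20 antenna genes, which mark leaf mesophyll, was 33600 to 46700 TPM in Col0 and 33100 to 33900 TPM in pp7l at 0 D, and 12600 to 14900 TPM and 16900 to 19700 TPM at 9 D.

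The promoter of LHB1B1, at chr2:14524357-14524606 on the plus strand of TAIR10.1, was chosen after its values were seen, as an example of an antenna gene. Its capitals mark the same letters as above.
LHB1B1: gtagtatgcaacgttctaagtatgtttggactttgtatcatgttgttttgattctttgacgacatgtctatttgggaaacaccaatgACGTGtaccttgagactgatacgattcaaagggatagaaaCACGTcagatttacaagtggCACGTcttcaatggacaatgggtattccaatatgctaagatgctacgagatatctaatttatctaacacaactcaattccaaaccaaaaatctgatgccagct
It holds ACGTG 3 times, and neither GATAAG nor TATAAA.

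Of 71 plastid loci tested, 21 had a positive call and 0 a negative one, beside 2.22% and 12.4% of all loci, and 0 had either call with the variance of all 29 libraries. Of 72 mitochondrial loci tested, 8 had a negative call, a share near the 12.4% of all loci, with 5 without pp7l 9 D replicate 2, 12 without pp7l 9 D replicate 3 and 2 with all 29 libraries. The reference table gives no names for the organelle loci. The list of the plastid transcription machinery, which holds proteins bound to the plastid-encoded RNA polymerase and the sigma factors that direct it, had 6 negative calls among 20, beside 12.4% of all loci. The count was 3 without Col0 9 D replicate 2 or 3, pp7l 0 D replicate 2 or 3 or pp7l 9 D replicate 2, and 3 with the replicate block. FLN1, a kinase-like protein of that polymerase complex, rose from 1.40, 1.66 and 1.22 TPM to 3.12, 2.75 and 2.98 TPM in Col0 and fell from 7.41, 8.88 and 9.87 TPM to 4.98, 5.62 and 5.55 TPM in pp7l, with all pp7l libraries above all of Col0 on both days. Its difference was -1.31 ± 0.19 (SE), or -0.83 scaled (adjusted p = 0.000120 and 0.00166). SIG5, a sigma factor induced by blue light and stress, had -1.63 ± 0.24 (SE), and FSD3, an iron superoxide dismutase of the plastid nucleoid, -1.53 ± 0.17 (SE). With all 29 libraries 1 of the 6 calls was left.

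The Calvin-Benson list, which holds the enzymes that fix carbon dioxide, had 0 positive and 2 negative calls among 18 tested, a share near the 12.4% of all loci. The negative count was 1 without any 1 library of Col0 9 D, pp7l 0 D or pp7l 9 D, and a positive call was added without Col0 0 D replicate 3. RCA, the activase of Rubisco, was at 285, 329.9 and 119 TPM in Col0 at 0 D and 452, 405 and 375 TPM at 9 D, and fell from 459, 475 and 514 TPM to 207, 219.9 and 247 TPM in pp7l (difference -1.97 ± 0.37 (SE), or -1.14 scaled; adjusted p = 0.000775 and 0.0168). Col0 0 D replicate 3 lay apart from its group here, and without it the difference was -1.52. TKL1, a transketolase of the cycle, showed the same low library at 16.8 TPM, and its difference of -2.11 ± 0.47 (SE) became -1.52 without it. GUN5, a subunit of the magnesium chelatase that starts chlorophyll synthesis, was the 1 call among 16 tested of that pathway, at -1.59 ± 0.28 (SE), beside 12.4% of all loci. When single libraries were left out, 0 to 3 genes of the pathway were called negative.

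**Figure D3:**
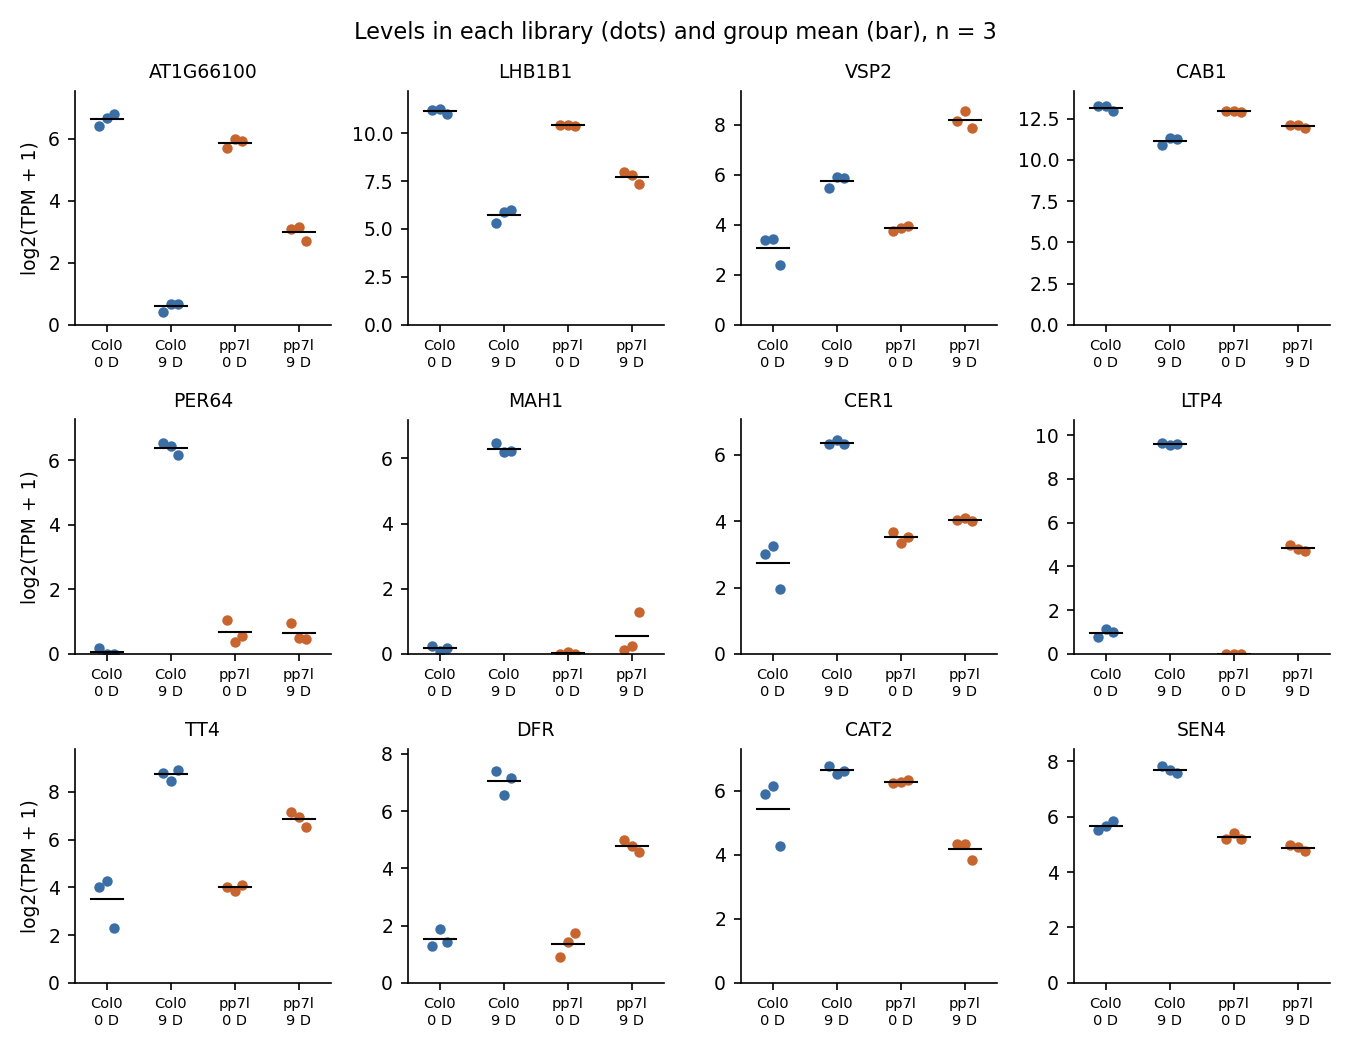
Levels on the log2(TPM + 1) scale in each of the 12 libraries (dots, blue for Col0 and orange for pp7l) with group means (bars, n = 3) for 12 genes named in the text. LHB1B1 and AT1G66100 fall further in Col0, VSP2 rises further in pp7l, and PER64, MAH1, CER1 and LTP4 rise further in Col0.

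The 12 largest negative differences belong to genes whose level in every other group was far below that of Col0 at 9 D. PER64, a class III peroxidase known from lignin deposition, had the largest. It was at 0.141, 0 and 0 TPM in Col0 at 0 D and 91.1, 85.3 and 71.0 TPM at 9 D, and at 1.062, 0.297 and 0.474 TPM and 0.930, 0.416 and 0.369 TPM in pp7l. The pp7l days overlapped, and the 3 Col0 libraries of 9 D stood far above all others. The difference was -6.34 ± 0.26 (SE), or -5.85 scaled (adjusted p = 1.27e-09 and 9.08e-09). Outside Col0 at 9 D, only pp7l 0 D replicate 1 reached 1 TPM. PER64 thus met the filter of 3 libraries only with Col0 at 9 D, so its call and p-values are no support.

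GRP19, a glycine-rich oleosin of the pollen coat, was listed at 0 in all 6 libraries of 0 D. At 9 D it was at 68.9, 103 and 109 TPM in Col0 and 0, 0 and 3.76 TPM in pp7l, where replicate 3 alone was above 0. AT1G66850, annotated as a lipid-transfer family protein, had the same pattern, with 65.0, 70.3 and 111 TPM in Col0 at 9 D and 3.58 TPM in pp7l 9 D replicate 3. Since most groups are at 0, fitted differences of such genes depend on the value added before the logarithm and no fold is given (-5.78 for GRP19, with -8.08 at an added 0.1 and -4.00 at 5). GRP19 and AT1G66850 met the filter of 3 libraries only with Col0 at 9 D, so their calls are no support.

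A further 4 genes of the 12 were listed at 0 in all libraries but those of Col0 at 9 D. RALFL8, a peptide of the rapid alkalinization factor family, had 27.9, 31.2 and 25.5 TPM there and its relative RALFL9 16.6, 24.8 and 18.3 TPM. GILT, annotated as a lysosomal thiol reductase, had 18.22, 31.1 and 17.7 TPM, and PGA4, a polygalacturonase that cuts pectin, 19.2, 22.7 and 19.8 TPM. AGP23, an arabinogalactan protein known from pollen, was at 21.4, 32.8 and 39.5 TPM in Col0 at 9 D, and of the other libraries only pp7l 9 D replicate 3 was above 0, with 0.445 TPM. LTP12, a lipid transfer protein of the anther, was at 0 in every library of 0 D, at 27.9, 59.8 and 45.3 TPM in Col0 and 0.560, 0.207 and 1.62 TPM in pp7l at 9 D. The genes of this paragraph all met the filter only with Col0 at 9 D, so their calls are no support.

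CTL2, a chitinase-like protein known from cellulose deposition in secondary walls, was detected in all 12 libraries. It rose from 0.956, 1.72 and 0.737 TPM to 68.5, 67.8 and 49.8 TPM in Col0 and was at 1.51, 1.97 and 1.75 TPM and 1.86, 2.19 and 1.79 TPM in pp7l. Its difference was -4.79 ± 0.25 (SE), or -4.09 scaled (adjusted p = 8.82e-09 and 4.8e-08). FLA11 and FLA12, fasciclin-like arabinogalactan proteins of the secondary wall in stems, were called in opposite directions in the genotypes after scaling. FLA11 rose from 5.28, 6.23 and 4.27 TPM to 115, 119.9 and 89.7 TPM in Col0 and went from 3.80, 5.34 and 5.37 TPM to 2.71, 4.49 and 3.04 TPM in pp7l, and its difference was -4.54 ± 0.26 (SE), or -3.69 scaled (adjusted p = 1.7e-08 and 9.46e-08). FLA12 had -4.25 ± 0.23 (SE), or -3.35 scaled.

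The promoters of PER64, at chr5:16852378-16852627 on the plus strand, and of GRP19, at chr5:2389250-2389499 on the minus strand, stand beside those of the positive loci, with the same capitals.
PER64: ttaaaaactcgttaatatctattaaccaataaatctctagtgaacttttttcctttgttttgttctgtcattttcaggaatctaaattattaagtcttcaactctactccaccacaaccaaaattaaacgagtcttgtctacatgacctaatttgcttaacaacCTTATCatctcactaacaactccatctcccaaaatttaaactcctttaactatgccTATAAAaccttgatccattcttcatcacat
GRP19: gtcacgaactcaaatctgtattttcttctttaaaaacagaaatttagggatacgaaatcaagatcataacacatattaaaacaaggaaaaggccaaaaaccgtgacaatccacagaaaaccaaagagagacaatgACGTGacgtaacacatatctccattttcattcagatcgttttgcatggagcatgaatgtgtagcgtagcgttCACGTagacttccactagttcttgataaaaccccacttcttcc
PER64 holds GATAAG on the minus strand and TATAAA close to the annotated start, and GRP19 holds ACGTG 2 times. Among 340 promoters of positive protein-coding nuclear loci, 35.9% hold ACGTG on either strand, beside 25.1% of 2101 negative and 23.5% of all 16518 such loci tested. CACGTG, the G-box that contains ACGTG, is in 12.6%, 7.19% and 7.48%, GATAAG in 19.1%, 11.5% and 12.7%, and AAAATATCT, the evening element of the clock, in 5.29%, 2.43% and 2.60%. CCGAC, the drought-responsive core, is in 11.8%, 11.9% and 13.2%, GAANNTTC, a unit of heat shock elements, in 7.06%, 9.47% and 9.26%, and TATAAA in 46.5%, 48.1% and 45.8%. The motifs were chosen after the calls were known, and a match is not a bound site.

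Among the floral genes the levels are small, and 6 of the 8 tested floral organ identity genes passed the filter only through Col0 at 9 D, so counts and tests of such members are no support and their levels are given alone. PI (PISTILLATA), a MADS factor of petals and stamens, was at 8.40, 9.37 and 11.8 TPM in Col0 at 9 D and at no more than 1.104 TPM in any other library. SEP3, another MADS factor of floral organs, was at 9.36, 10.04 and 11.4 TPM and 0.311, 0.697 and 1.063 TPM in Col0 and pp7l at 9 D. AP3, the partner of PI, was at 5.87, 5.15 and 8.12 TPM and 0.189, 0.777 and 0.375 TPM. FT, the mobile flowering signal made in leaves, was at 2.83, 2.25 and 2.44 TPM in Col0 and at 0 in all pp7l libraries of 9 D. At 9 D all Col0 libraries were above all pp7l libraries for these genes.

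Summed over the 12 floral genes with a value, the level in Col0 was 1.29 to 1.60 TPM at 0 D and 40.6 to 47.5 TPM at 9 D, and in pp7l 0.279 to 0.624 TPM and 2.24 to 4.41 TPM. The 5 pollen and anther markers summed to at most 0.363 TPM at 0 D, to 7.45 to 14.1 TPM in Col0 at 9 D and to 0 to 2.59 TPM in pp7l at 9 D. GRP17, the major oleosin of the pollen coat, was at 3.10, 5.36 and 4.2997 TPM in Col0 at 9 D and above 0 in 1 library of the other groups. All 12 seed storage and lipid droplet genes were under the filter, with a sum of at most 0.673 TPM. The 9 guard cell genes summed to 10.6 to 13.6 TPM in Col0 and 11.6 to 11.9 TPM in pp7l at 9 D, with 0 calls among 7 tested. The 6 root markers summed to 1.81 to 3.05 TPM in Col0 at 0 D and 6.92 to 6.95 TPM at 9 D, and to 5.90 to 7.12 TPM and 5.19 to 5.89 TPM in pp7l. The sums thus moved up in Col0 and not in pp7l, and SHR, a root patterning factor also active in leaf veins, was the 1 call among 2 tested. They rest mostly on SCR and SHR. The other markers were under the filter, at no more than 0.340 TPM in Col0 at 9 D. Of these, RHD2 and COBL9 were higher in all Col0 libraries of 9 D than of 0 D, and EXPA7 and CASP1 overlapped. In pp7l, RHD2 was higher at 9 D, EXPA7 and CASP1 were lower, and COBL9 overlapped. GRP17 and A9, the pollen and anther markers that were tested, were highest in replicate 3 among the pp7l libraries of 9 D. The part of flowers, stems and roots in the other negative differences was not tested.

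The wax and lipid transfer list had 9 negative calls and 1 positive among 17 tested, beside 12.4% and 2.22% of all loci. Of the 9, CER4 passed the filter through Col0 at 9 D alone. MAH1 met the filter of 3 libraries only with that group, so the calls of CER4 and MAH1 are no support. Waxes are made in the epidermis by elongation of fatty acids and by an alkane-forming and an alcohol-forming branch. MAH1, the cytochrome P450 that oxidizes alkanes to secondary alcohols and ketones of stem wax, went from 0.179, 0.0675 and 0.122 TPM to 87.4, 72.1 and 74.1 TPM in Col0. In pp7l it was at 0, 0.0464 and 0 TPM at 0 D and 0.0772, 0.173 and 1.42 TPM at 9 D, and its difference was -5.61 ± 0.33 (SE), or -4.99 scaled (adjusted p = 2.39e-08 and 4.8e-08). Outside Col0 at 9 D, MAH1 reached 1 TPM only in pp7l 9 D replicate 3. Without Col0 at 9 D it would not have passed the filter, so its call and p-values are no support.

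CER1 and CER3 act together to form alkanes. CER1 rose from 7.08, 8.55 and 2.89 TPM to 79.7, 86.2 and 79.0 TPM in Col0 and went from 11.9, 9.24 and 10.6 TPM to 15.3, 16.2 and 15.1 TPM in pp7l. CER3 rose from 4.05, 5.23 and 3.97 TPM to 42.9, 43.1 and 38.3 TPM in Col0, while in pp7l it was at 7.78, 7.37 and 8.24 TPM and 7.11, 6.82 and 9.35 TPM, with overlapping days. The differences were -3.10 ± 0.34 (SE) for CER1 and -2.99 ± 0.19 (SE) for CER3, or -2.33 and -2.22 scaled (adjusted p = 1.19e-05 and 7.32e-08 unscaled). CER4, the reductase of the alcohol branch, went from 0.340, 0.326 and 0.392 TPM to 22.4, 18.5 and 18.3 TPM in Col0 and from 0.0446, 0.0846 and 0.205 TPM to 0.472, 0.649 and 0.646 TPM in pp7l. It passed the filter through Col0 at 9 D alone, so its call is no support and its levels are given alone. WSD1, which joins alcohols and acids to wax esters, had -2.26 ± 0.23 (SE) and KCS1, a fatty acid elongase, -2.52 ± 0.32 (SE).

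LTP4, a lipid transfer protein, rose from 0.725, 1.19 and 0.973 TPM to 791, 752 and 770.0 TPM in Col0. In pp7l it was listed at 0 in all libraries of 0 D and reached 30.6, 26.4 and 25.4 TPM at 9 D. The groups did not overlap, and the difference was -3.80 ± 0.17 (SE), or -3.11 scaled (adjusted p = 1.95e-09 and 4.8e-08). Since pp7l at 0 D is at 0, the size depends on the value added before the logarithm. Over all alternative settings it ranged from -4.33 to -1.43. LTP3, its near copy, rose from 6.04, 3.996 and 6.85 TPM to 754, 762 and 939 TPM in Col0 and from 1.08, 1.27 and 1.67 TPM to 281, 245 and 171 TPM in pp7l. It was lower in pp7l on both days, and its difference of -0.35 ± 0.27 (SE) was not called and changed sign after scaling (0.47). How reads were divided between these neighbours is uncertain. LTP6 had -2.23 ± 0.25 (SE), and LTP5 was positive at 0.72 ± 0.14 (SE) (adjusted p = 0.000954), a call that was lost with all 29 libraries (adjusted p = 0.468).

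Genes of flavonoid synthesis rose in Col0 and rose less, or were not called, in pp7l. Of 13 tested enzymes, 12 had a negative call (12.4% of all loci did) and 0 a positive one, with a median scaled difference of -1.50. The same count, 12, was reached with the variance of all 29 libraries, and it was 9 to 12 when single libraries were left out. All 13 rose in Col0 and 9 of them in pp7l. PAL1, which opens the phenylpropanoid pathway, rose from 2.19, 3.402 and 1.73 TPM to 39.0, 37.6 and 37.1 TPM in Col0, while pp7l went from 5.97, 5.29 and 6.94 TPM to 7.43, 6.17 and 8.02 TPM. Its difference of -3.31 ± 0.23 (SE), or -2.61 scaled, was the largest of the list (adjusted p = 1.55e-07 and 5.01e-07).

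TT4, the chalcone synthase that makes the first flavonoid skeleton, rose from 15.2, 18.0 and 3.97 TPM to 443, 353 and 489 TPM in Col0 and from 15.2, 13.6 and 16.3 TPM to 144, 124 and 90.3 TPM in pp7l. All libraries of 9 D were above all of 0 D, and those of pp7l were below those of Col0. The difference was -2.32 ± 0.51 (SE), or -1.54 scaled (adjusted p = 0.00209 and 0.0335), and -1.72 without Col0 0 D replicate 3, whose level was the lowest. DFR, which commits the pathway to anthocyanins, rose from 1.45, 2.64 and 1.70 TPM to 167, 93.6 and 142 TPM in Col0 and from 0.864, 1.66 and 2.35 TPM to 30.8, 26.6 and 22.5 TPM in pp7l, a difference of -2.08 ± 0.34 (SE), or -1.38 scaled (adjusted p = 0.000283 and 0.00666). LDOX, the next enzyme, had -2.02 ± 0.36 (SE), and FLS1, on the branch to flavonols, -2.42 ± 0.29 (SE).

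TT19, a glutathione transferase that carries anthocyanins to the vacuole, was the 1 enzyme not called in both scalings (-1.16 ± 0.27 (SE), and -0.34 scaled with an adjusted p of 0.408). PAP1, the MYB factor that switches on anthocyanin genes, did not share the negative difference. It rose from 4.78, 3.88 and 3.72 TPM to 34.4, 27.9 and 32.0 TPM in Col0 and from 1.93, 1.78 and 2.09 TPM to 28.1, 21.0 and 16.02 TPM in pp7l, a difference of 0.26 ± 0.24 (SE) (adjusted p = 0.384) and of 1.03 after scaling (adjusted p = 0.0102). Of 7 regulators listed, 2 were tested with 0 calls and 4 were under the filter.

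**Figure D4:**
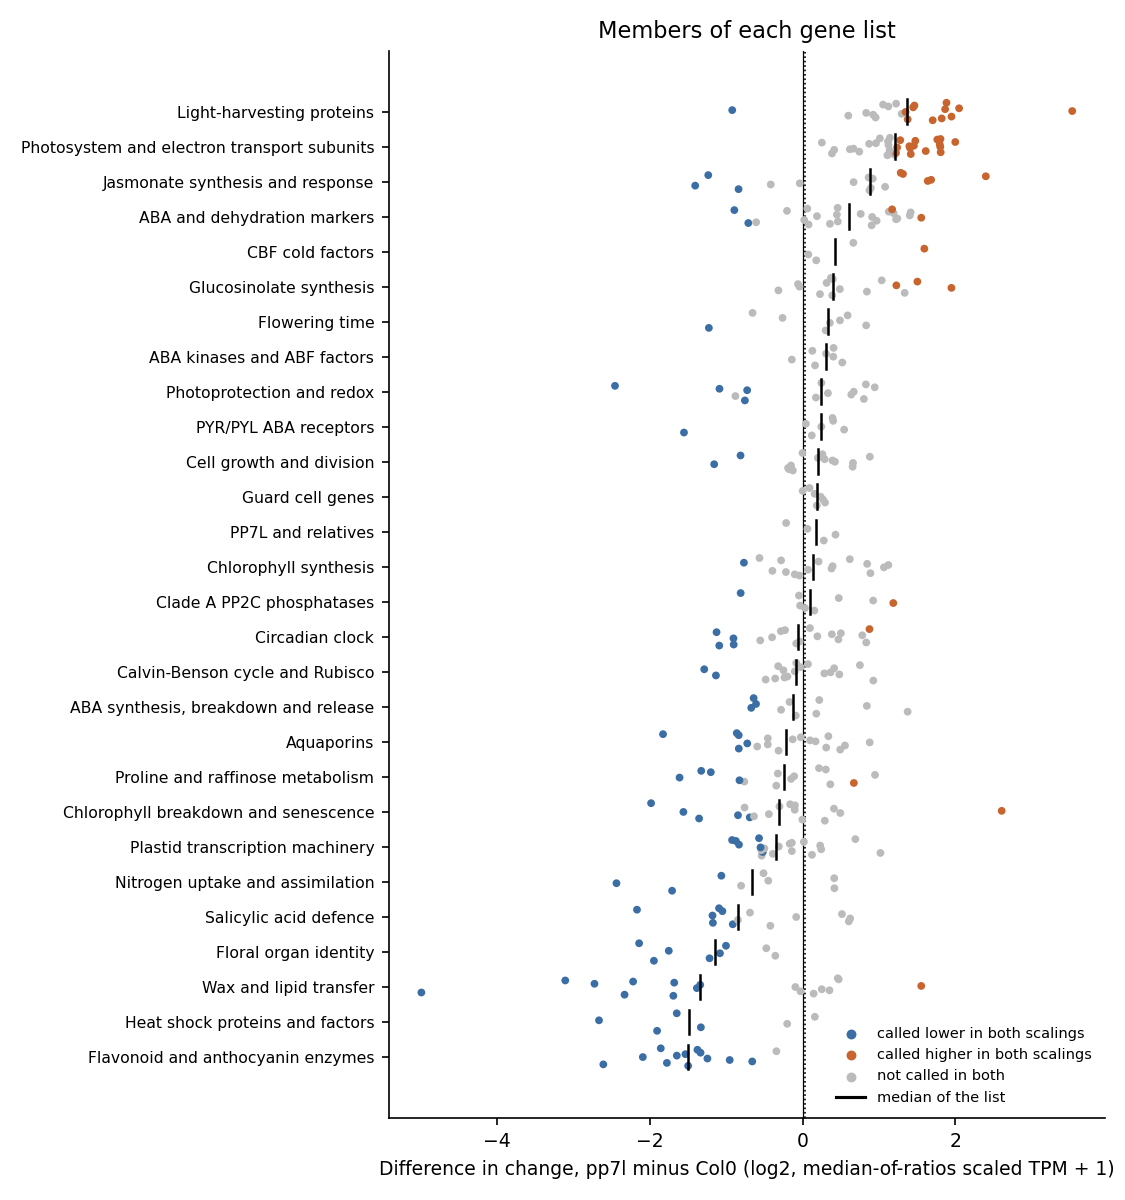
Scaled difference in change (x axis, log2, pp7l minus Col0) of the tested members of each gene list with at least 4 tested members, with blue points for negative and orange points for positive calls in both scalings, grey points for the rest and a black line at the list's median. Flavonoid enzymes and wax genes lie to the left and antenna and photosystem genes to the right. Floral genes also lie to the left, but 6 of the 8 passed the filter only through Col0 at 9 D, so their place is no support. The dotted line is the median of all loci tested, 0.03.

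Of 15 listed heat shock genes, 4 of the 6 tested had a negative call, beside 12.4% of all loci, with 3 or 4 when single libraries were left out. Of the 6, 1 passed the filter through Col0 at 9 D alone, and a call of such a gene is no support. The other 9 listed genes were under the filter. Of these 9, HSP22.0 was lower in all Col0 than in all pp7l libraries of 9 D, and the ranges of HSP70B overlapped. HSP70, a cytosolic chaperone, was at 44.7, 122 and 39.8 TPM in Col0 at 9 D and 10.9, 6.999 and 10.3 TPM in pp7l, from at most 1.17 TPM at 0 D. HSP101, which takes aggregates apart, was at 6.23, 21.7 and 4.70 TPM and 1.73, 1.33 and 1.39 TPM. In both genes Col0 9 D replicate 2 was far above the other 2 libraries of its group. The differences were -3.15 ± 0.43 (SE) and -2.35 ± 0.50 (SE) (adjusted p = 8.75e-05 and 0.00168), and -2.65 and -1.74 without that library.

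A pair of chaperones of the HSP70 family was called in opposite directions in the genotypes after scaling. AT3G09440 rose from 18.9, 21.3 and 8.05 TPM to 164, 292 and 151 TPM in Col0 and went from 57.4, 58.7 and 66.7 TPM to 41.9, 40.2 and 46.0 TPM in pp7l. At 0 D all libraries of pp7l were above those of Col0, and at 9 D all were below. Its difference was -4.11 ± 0.40 (SE), or -3.31 scaled (adjusted p = 4.73e-06 and 2.63e-05), and Hsp70-2 had -3.85 ± 0.36 (SE). These genes are close copies of others of the family, so the division of reads is uncertain. Also opposite were TPX2 (AT1G65970), a peroxiredoxin, at -3.94 ± 0.22 (SE), and AT3G54040, annotated as a PAR1 protein, at -3.75 ± 0.26 (SE). TPX2 met the filter of 3 libraries only with Col0 at 9 D, so its call is no support.

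Of 24 dehydration markers of abscisic acid signalling tested, 2 had a positive and 2 a negative call, beside 2.22% and 12.4% of all loci. The positive count was 6 without Col0 9 D replicate 3, 0 without pp7l 9 D replicate 1 and 1 or 2 without any other library, and the negative count was 1 without pp7l 9 D replicate 2 and 3 without Col0 0 D replicate 3. RAB18, a dehydrin, rose from 2.27, 1.08 and 1.69 TPM to 22.8, 21.1 and 69.9 TPM in Col0 and from 0.988, 3.002 and 1.999 TPM to 59.8, 17.2 and 27.8 TPM in pp7l. The groups of 9 D overlapped and the difference of -0.20 ± 0.63 (SE) was not called (adjusted p = 0.807). RD29A, a desiccation-responsive protein, was at 33.4, 26.1 and 35.8 TPM in Col0 and 29.5, 18.3 and 41.6 TPM in pp7l at 9 D, also with overlap (difference -0.61 ± 0.34 (SE), adjusted p = 0.144). ERD1, a chloroplast protease subunit induced by dehydration, rose from 2.37, 2.82 and 1.57 TPM to 25.4, 24.3 and 26.1 TPM in Col0 and from 6.14, 5.97 and 6.74 TPM to 19.4, 16.1 and 22.9 TPM in pp7l, with a difference of -1.55 ± 0.22 (SE), or -0.90 scaled (adjusted p = 0.000106 and 0.00324).

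RD29B, a close relative of RD29A, was at 0.426, 0.270 and 2.26 TPM in Col0 and 4.13, 1.51 and 4.74 TPM in pp7l at 9 D (difference 1.199 ± 0.45 (SE), adjusted p = 0.0377). COR15A, a chloroplast protein that protects membranes, had 0.72 ± 0.24 (SE) (adjusted p = 0.0234). The call of RD29B was lost without any 1 of 10 libraries (all but Col0 9 D replicate 3 and pp7l 9 D replicate 2, adjusted p up to 0.0959), and that of COR15A without Col0 9 D replicate 1 or pp7l 9 D replicate 1 or 2 (up to 0.0598). Among the PP2C phosphatases, which switch abscisic acid signalling off, HAI1 was the 1 negative call among 8 tested of 9, at -1.38 ± 0.26 (SE), beside 12.4% of all loci. The 1 positive call was that of HAI3, which passed the filter through pp7l at 9 D alone, so it is no support. The list had 0 or 1 call in each direction when single libraries were left out. PYL4, an abscisic acid receptor, rose from 6.08, 5.69 and 2.62 TPM to 16.5, 14.4 and 13.1 TPM in Col0 and fell from 8.03, 8.74 and 9.05 TPM to 3.36, 3.82 and 6.53 TPM in pp7l. Its difference of -2.31 ± 0.34 (SE), or -1.55 scaled, was the 1 call among 7 tested of 14 receptors, beside 12.4% of all loci (limma, adjusted p = 0.000135 and 0.00190).

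The proline and raffinose list had 1 positive and 4 negative calls among 14, beside 2.22% and 12.4% of all loci. The positive call, of GOLS4, was lost with all 29 libraries and without Col0 0 D replicate 1, Col0 9 D replicate 3 or pp7l 0 D replicate 1 or 3. ERD5, the mitochondrial proline dehydrogenase that breaks proline down, rose from 5.69, 5.35 and 2.97 TPM to 18.3, 19.7 and 13.6 TPM in Col0 and fell from 5.88, 4.58 and 6.75 TPM to 2.62, 2.76 and 4.02 TPM in pp7l. Its difference was -2.41 ± 0.30 (SE), or -1.61 scaled (adjusted p = 3.95e-05 and 0.000634). PDH2, the other proline dehydrogenase, had -1.80 ± 0.20 (SE), and the proline transporter PROT1 -1.61 ± 0.17 (SE) (adjusted p = 0.0557 with all 29 libraries). Of 18 aquaporins, channels for water, 5 had a negative call, beside 12.4% of all loci, and 3 did with all 29 libraries. PIP3 of the plasma membrane rose from 111, 114 and 84.2 TPM to 161, 175 and 156 TPM in Col0, a direction that was reversed after scaling, and fell from 97.1, 102 and 104 TPM to 50.3, 47.2 and 52.2 TPM in pp7l (difference -1.68 ± 0.16 (SE), or -0.84 scaled; adjusted p = 4.9e-06 and 0.00114). The vacuolar channel DELTA-TIP fell in both, from 303, 288 and 308 TPM to 197, 206 and 177 TPM and from 182, 173 and 175 TPM to 35.6, 42.1 and 35.2 TPM, further in pp7l (-1.57 ± 0.14 (SE), or -0.73 scaled).

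Of 17 tested genes of chlorophyll breakdown and senescence, 5 had a negative and 1 a positive call, beside 12.4% and 2.22% of all loci. SEN4, a cell wall enzyme of the XTH family used as a senescence marker, rose from 44.5, 49.8 and 56.6 TPM to 227, 207 and 189 TPM in Col0 and fell from 35.4, 41.9 and 35.3 TPM to 30.5, 29.2 and 26.1 TPM in pp7l. Neither genotype's days overlapped, and the difference was -2.40 ± 0.17 (SE), or -1.56 scaled (adjusted p = 1.72e-07 and 0.000180). SAG12, a protease of senescent leaves, was at 101, 52.8 and 38.8 TPM in Col0 and 15.98, 6.05 and 14.04 TPM in pp7l at 9 D and at most at 0.0955 TPM at 0 D (-2.33 ± 0.45 (SE), adjusted p = 0.000956). NYC1, which starts chlorophyll b breakdown, had -1.62 ± 0.17 (SE) and PAO, which opens the chlorophyll ring, -1.48 ± 0.23 (SE). SEN1, a gene induced in the dark, was the positive member at 1.91 ± 0.37 (SE) (adjusted p = 0.000893, and 0.0813 with all 29 libraries).

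CAT2, the leaf catalase that removes hydrogen peroxide from photorespiration, was the strongest of 4 negative calls among 13 tested photoprotection genes, beside 12.4% of all loci. It was at 58.4, 70.1 and 18.1 TPM in Col0 at 0 D, with replicate 3 apart, and at 107, 90.3 and 97.2 TPM at 9 D. In pp7l it fell from 74.2, 76.6 and 78.9 TPM to 19.2, 19.3 and 13.4 TPM. The difference was -3.30 ± 0.48 (SE), or -2.46 scaled (adjusted p = 0.000137 and 0.00120), and -2.71 without Col0 0 D replicate 3. APX1, an ascorbate peroxidase, rose from 77.6, 89.5 and 67.7 TPM to 219, 222 and 203 TPM in Col0 and was at 84.2, 84.9 and 105 TPM and 85.3, 82.1 and 79.4 TPM in pp7l (-1.59 ± 0.17 (SE), or -0.76 scaled). ELIP1, an early light-induced protein, had -1.80 ± 0.33 (SE) (adjusted p = 0.000730, and 0.0908 with all 29 libraries).

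Jasmonate genes split. Of 16 tested, 5 had a positive and 3 a negative call, against 2.22% and 12.4% of all loci. VSP2, a vegetative storage protein that jasmonate induces, rose from 9.36, 9.75 and 4.31 TPM to 43.8, 58.7 and 57.3 TPM in Col0 and from 12.7, 13.8 and 14.5 TPM to 285, 371 and 232 TPM in pp7l. The lowest pp7l library of 9 D was above the highest of Col0, and the difference was 1.64 ± 0.33 (SE), or 2.40 scaled (adjusted p = 0.00128 and 0.000144). VSP1, its close copy, did the reverse: it rose to 139, 167 and 150.4 TPM in Col0 and to 53.4, 63.5 and 64.4 TPM in pp7l, with -1.94 ± 0.33 (SE) (adjusted p = 0.000402, and 0.0636 with all 29 libraries), and the division of reads between both is uncertain. AOC2, an allene oxide cyclase of jasmonate synthesis, went from 44.9, 48.2 and 54.5 TPM to 47.6, 50.05 and 61.5 TPM in Col0 and from 54.7, 61.3 and 59.4 TPM to 107, 119 and 119.7 TPM in pp7l, a difference of 0.86 ± 0.17 (SE), or 1.68 scaled (adjusted p = 0.000963 and 7.05e-05). PDF1.2, a defensin, fell from 5.21, 5.23 and 4.17 TPM to 0 in all Col0 libraries and to 0.193, 1.29 and 0.560 TPM in pp7l. With all 29 libraries 0 of the 5 positive calls were left, and 2 without Col0 6 D replicate 1.

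Of 13 tested salicylic acid genes, 6 had a negative and 0 a positive call, beside 12.4% and 2.22% of all loci, and 4 were negative with all 29 libraries. PBS3, an enzyme of salicylic acid synthesis, rose from 0.399, 0.605 and 0.258 TPM to 3.32, 2.91 and 2.35 TPM in Col0 and fell from 3.63, 3.85 and 3.71 TPM to 1.14, 1.63 and 0.911 TPM in pp7l. Its levels crossed over without overlap on either day, and the difference was -2.54 ± 0.21 (SE), or -2.17 scaled (adjusted p = 1.05e-06 and 5.86e-06). ICS1, the isochorismate synthase that supplies the pathway, fell in pp7l from 4.95, 5.20 and 6.35 TPM to 1.87, 2.94 and 1.18 TPM and was at 0.932, 1.57 and 0.518 TPM and 1.47, 2.17 and 1.199 TPM in Col0 (-1.55 ± 0.32 (SE), adjusted p = 0.00151). PAD4, a regulator of basal defence, had -1.82 ± 0.26 (SE).

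Of 8 tested genes of nitrogen use, 3 had a negative call, beside 12.4% of all loci. NIA1, a nitrate reductase, was at 3.48, 3.80 and 0.908 TPM and 5.51, 6.13 and 6.22 TPM in Col0 and fell from 12.4, 11.1 and 13.6 TPM to 2.95, 1.48 and 2.17 TPM in pp7l. Its difference was -3.09 ± 0.39 (SE), or -2.44 scaled (adjusted p = 4.3e-05 and 0.000533), with Col0 0 D replicate 3 below its group. NRT2.1, a nitrate transporter mainly of roots, fell in pp7l from 9.03, 8.22 and 8.69 TPM to 1.78, 0.761 and 1.35 TPM and was at most at 0.746 TPM in the Col0 libraries. The part of roots in this difference, beside the root marker sums above, was not tested. XTH4, a cell wall loosening enzyme, was at 64.4, 70.5 and 74.3 TPM and 75.9, 74.6 and 64.6 TPM in Col0, with overlap, and fell from 65.2, 61.5 and 62.5 TPM to 15.1, 17.8 and 13.4 TPM in pp7l (-2.01 ± 0.17 (SE), or -1.16 scaled; adjusted p = 7.98e-07 and 0.00135), 1 of 2 calls among 15 growth genes, a share near the 12.4% of all loci, with an adjusted p of 0.0734 with all 29 libraries. The morning clock gene CCA1 had -1.45 ± 0.29 (SE), among 4 negative calls and 1 positive in 18 clock genes, beside 12.4% and 2.22% of all loci. Of the 18, 1 passed the filter through Col0 at 9 D alone, and a call of such a gene is no support. LHY, another morning gene, was under the filter in some of the alternative settings, so no difference is given for it. The negative count was 2 without Col0 9 D replicate 1 or 3, and the labels give no time of harvest.

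Other lists held few calls. Glucosinolate synthesis, which makes sulphur-rich defence compounds from amino acids, had 3 positive calls among 15 tested, beside 2.22% of all loci (1 call with all 29 libraries). Its CYP79B3, the first step from tryptophan, had 1.44 ± 0.20 (SE), and CYP79B2 had 0.93 ± 0.33 (SE) (adjusted p = 0.0281), a call lost without Col0 9 D replicate 1, pp7l 0 D replicate 2 or pp7l 9 D replicate 1. CBF2, a transcription factor of the cold response, was the 1 positive call among 4 tested of 5 genes in the CBF cold list, which also holds ICE1 and ZAT10 (adjusted p = 0.0337, limma), beside 2.22% of all loci. The call was lost without any 1 of 6 libraries (Col0 0 D replicates 2 and 3, Col0 9 D replicate 3, pp7l 0 D replicate 2, pp7l 9 D replicates 1 and 2). Abscisic acid synthesis, breakdown and release had 3 negative calls among 10 tested of 14, beside 12.4% of all loci, and 0 were left with all 29 libraries. Of these 10 genes, 1 passed the filter through Col0 at 9 D alone, and a call of such a gene is no support. The abscisic acid kinases and ABF factors had 0 calls among 7 tested of 8, and PP7L with its relatives 0 among 4. Flowering time genes had 1 negative call among 8 tested of 11, a share near the 12.4% of all loci. That call was of FT, 1 of 2 members of the list that passed the filter through Col0 at 9 D alone, so it is no support.

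The filter bears on these counts. Of the 17135 loci, 478 passed it through Col0 at 9 D alone, 368 of them with a negative call, and 81 through pp7l at 9 D alone, 17 of them with a positive one. Another 35 passed through pp7l at 0 D and 5 through Col0 at 0 D. The other 16536 loci, which reached 1 TPM in libraries of several groups, held 362 positive and 1738 negative calls. They include loci such as PER64, GRP19 and MAH1, which met the filter of 3 libraries only with Col0 at 9 D. Calls of such loci are no support either, and their number is not given here.

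The levels at the other days without water, which the difference in change did not use, are given with no test. CAB1 in pp7l was at 2700.3 to 2883 TPM at 12 D and 2450.5 to 2767 TPM at 15 D, and in Col0 at 329 to 529 TPM and 16.2 to 58.7 TPM. All pp7l libraries of 12 D were thus above the highest of Col0 at 9 D, 2579 TPM. VSP2 was already at 378 to 393 TPM in pp7l at 6 D, against 7.59 and 51.1 TPM in Col0, and at 12 D it was at 123 to 308 TPM and 22.2 to 24.6 TPM.

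DFR in pp7l stood at 92.5 to 101 TPM at 6 D, 22.5 to 30.8 TPM at 9 D and 116 to 133 TPM at 12 D, so the libraries of 9 D were below those on either side. In Col0 it went from 1.77 and 11.5 TPM at 6 D to 93.6 to 167 TPM at 9 D and 106 to 119.5 TPM at 12 D. At 12 D the ranges of the genotypes overlapped. LTP4 in pp7l reached 42.1 to 85.9 TPM at 15 D, below the lowest Col0 library of 9 D, 752 TPM. CER1 in pp7l was at 11.8 to 27.1 TPM at 15 D, also below all Col0 libraries of 9 D, and PER64 spread from 0.209 to 9.23 TPM.

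**Figure D5:**
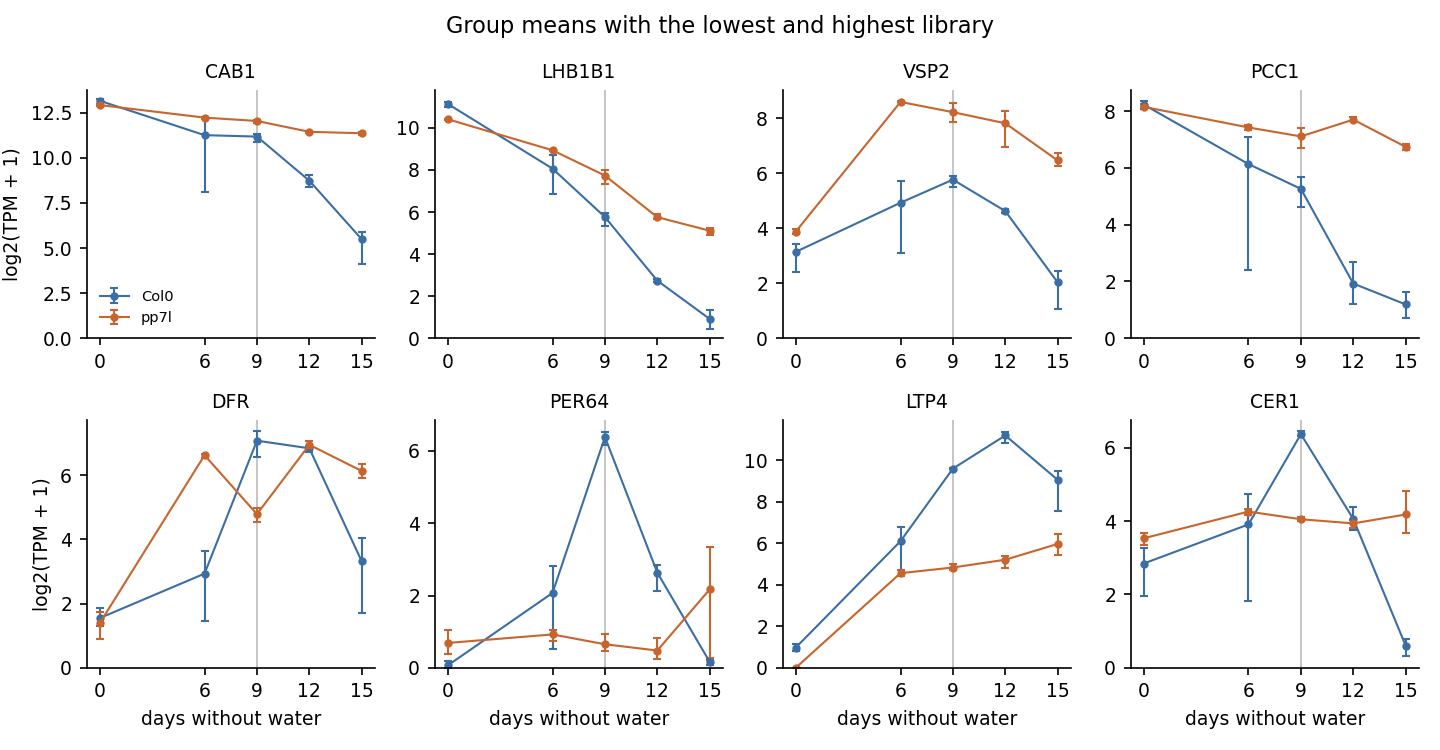
Group means on the log2(TPM + 1) scale with the lowest and highest library at 0, 6, 9, 12 and 15 days without water in Col0 (blue) and pp7l (orange), 3 libraries a group and 2 for Col0 at 6 D, with a grey line at 9 D. PER64 and CER1 peak at 9 D in Col0 and have no such peak in pp7l, and LHB1B1 falls in both genotypes at each day.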

How the data were processed

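The authors deposited TPM of 33681 loci in 29 libraries. Their processing notes name Trimmomatic, FastQC, Salmon and the build TAIR10, with no versions, roles or order. RNA was total RNA from whole plants and libraries were made with an Illumina TruSeq kit, per the labels' protocols. TPM keep no depth, so no counting interval is given, and the number of libraries limits the precision.

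From these values, 12 libraries (3 replicates in each of 4 groups) and 17135 loci with at least 1 TPM in 3 of them were used. limma 3.58.1 (R 4.3.3, data.table, version 1.17.8) was fitted on log2(TPM + 1) with 4 group means and an intensity trend (8 residual degrees of freedom). P-values were adjusted by Benjamini-Hochberg over all loci, with a threshold of 0.05, and the fit was repeated after median-of-ratios scaling. The steps were tested on simulated data. The members and the 32 gene lists (445 members, 3 left out for a clash of symbols and 3 not analysed here) were chosen with earlier results of these data known. Named loci are those called in both scalings with a group mean of at least 10 TPM: the 12 largest in each direction, the 6 largest with opposite changes and the 4 most abundant nuclear protein-coding ones, with PP7L. Other genes were named from the lists after their values were seen. Loci were matched to the TAIR10.1 annotation (32954 of 33681, 727 not matched), which also gave the promoters (Python 3.11.15, pandas 2.3.3, matplotlib 3.10.9 for figures). Alternatives covered scaling, pseudocount, filter, libraries in the fit, weights, trend, a replicate block and leaving out each library. Those on the scaled fit, the joint calls and the fit without Col0 6 D replicate 1 were added after the data were seen.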

Additional observations from a re-analysis of the deposited data

Results flagged for a closer look

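Every called locus is by construction 1 whose change under the same comparison differed between the genotypes, by limma's test of that difference itself. This holds for the 381 loci with a positive and the 2131 loci with a negative difference. For single loci the values are the difference in change on the log2(TPM + 1) scale, pp7l minus Col0. Chance and the choice of scaling bear on the list as a whole, and no explanation was tested.

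Among the largest positive differences, that of AT1G66100 was 3.15, that of AT3G04184 3.06 and that of AT1G14250 2.89. IAA29 had a difference of 2.79, MIR841a 2.71, LHB1B1 2.70, NATA1 2.61, AT5G23820 2.49 and AT5G50335 2.19. PCC1 followed with 1.96, AT4G13495 with 1.92 and RAV2 with 1.83. AT3G04184 and MIR841a rest on libraries listed at 0, and AT3G04184 met the filter only with pp7l at 9 D, so its call is no support.

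Among the largest negative differences, that of PER64 was -6.34, that of GRP19 -5.78, that of MAH1 -5.61 and that of AT1G66850 -5.60. RALFL8 had a difference of -4.86, AGP23 -4.79, CTL2 -4.79, LTP12 -4.67, FLA11 -4.54, GILT -4.50, PGA4 -4.43 and RALFL9 -4.37. RALFL8, AGP23, GILT, PGA4 and RALFL9 reached 1 TPM only in Col0 at 9 D and passed the filter through that group alone, so their calls are no support. The size of their differences depends on the value added before the logarithm. PER64, GRP19, MAH1, AT1G66850 and LTP12 also reached 1 TPM in a library of another group. They still met the filter of 3 libraries only with Col0 at 9 D, so their calls are no support either. GRP19, AT1G66850 and MAH1 carried their highest pp7l value in replicate 3 of 9 D.

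Genes that moved in opposite directions in the genotypes after scaling include FLA11 and FLA12, the latter at -4.25. The others are AT3G09440 at -4.11, TPX2 at -3.94, Hsp70-2 at -3.85 and AT3G54040 at -3.75. Of these, TPX2 met the filter only with Col0 at 9 D, so its call is no support. Of the most abundant nuclear transcripts that were called, CAB1 had 1.11, CAB3 0.98, PSBR 0.57 and LHB1B2 0.51.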

How the results depend on the processing

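The split of calls depends mainly on scaling and on the libraries that set the variance. On TPM as deposited, 386 positive and 8380 negative loci became 2170 and 2131 after median-of-ratios scaling and 700 and 4692 after rescaling over nuclear loci. With all 29 libraries they were 93 and 2776, the positive count was 209 without Col0 6 D replicate 1 and 617 with array weights, and leaving out single libraries gave 324 to 407 and 6713 to 8665. After scaling, all 29 libraries gave 970 positive loci, and leaving out single libraries gave 1516 to 2471 positive and 1207 to 2554 negative ones. In place of the 381 loci called positive in both scalings, all 29 libraries gave 91 (90 shared with the 381) and the fit without Col0 6 D replicate 1 gave 208 (202 shared). Array weights gave 605, and leaving out single libraries 320 to 402. The negative count of 2131 ranged from 1207 to 2554, lowest without a Col0 9 D library. The cause was not tested. Both pseudocounts, the stricter filter and the replicate block kept these counts within 1.5 times, as did the fit without a trend, which was run on TPM as deposited alone.

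Differences that changed sign were all uncalled: RD29A became 0.0604 after scaling, RAB18 0.46 after scaling, 0.11 over nuclear loci, 0.25 with array weights and -0.67 to 0.34 without single libraries. PP7L became 0.0616 after scaling, 0.0134 at a pseudocount of 5 and -0.39 to 0.13 without single libraries, and PAP1 -0.0734 at a pseudocount of 5. LTP3 became 0.47 after scaling, 0.36 over nuclear loci and 0.13 at a pseudocount of 0.1.

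Replicate numbers did not pair the libraries (18 same-number pairs, r of deviations -0.116 to 0.0696), and the replicate block gave 368 and 8001 loci on TPM as deposited and 362 and 1966 in both scalings. Low levels limit genes near 1 TPM, such as PP7L.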

Other observations

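Further list members with calls, named after their values were seen, concern respiration, light-dependent nitrogen use and vacuolar water flow. AOX1A, the alternative oxidase of plant mitochondria, was at 5.15, 5.74 and 5.56 TPM in Col0 at 0 D and 21.6, 16.7 and 19.7 TPM at 9 D, and at 9.95, 8.53 and 11.3 TPM and 11.4, 11.1 and 10.9 TPM in pp7l, with a difference in change of -1.49 ± 0.18 (SE). GLU1, the ferredoxin-dependent glutamate synthase of leaves, was at 13.2, 15.7 and 8.41 TPM and 32.2, 30.8 and 30.5 TPM in Col0 and at 37.5, 33.5 and 42.7 TPM and 25.03, 22.6 and 28.97 TPM in pp7l, with a difference of -1.85 ± 0.25 (SE). GAMMA-TIP, an aquaporin of the vacuole, was at 119.7, 118 and 107 TPM and 136, 152 and 113 TPM in Col0 and at 96.9, 91.4 and 90.07 TPM and 31.9, 30.4 and 36.5 TPM in pp7l, with a difference of -1.68 ± 0.17 (SE). DIN10, a raffinose family enzyme induced in the dark, had -1.86 ± 0.24 (SE), and GOLS4, a galactinol synthase, had 0.66 ± 0.23 (SE) (limma, adjusted p = 0.0243), a call lost with all 29 libraries and without Col0 0 D replicate 1, Col0 9 D replicate 3 or pp7l 0 D replicate 1 or 3.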
